A study of Homo sapiens with 6 samples.

Results

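The 8 genes described here encode transcription factors of the adrenergic core regulatory circuit of neuroblastoma: PHOX2A, HAND1, HAND2, GATA2, GATA3, ISL1, TBX2 and TFAP2B. They were chosen by name from general knowledge of that circuit, and are 8 of the 16500 distinct gene names in the deposited files. The cells were BE(2)-C, a human neuroblastoma line in long use whose MYCN gene is amplified. They received a control siRNA or WDR5 siRNA-1 for 24 hours, and chromatin immunoprecipitation with sequencing (ChIP-seq) was run for H3K4me3. This mark, a histone H3 with its lysine 4 trimethylated, sits at the start sites of active genes. WDR5 helps the enzyme complexes that write it. Of the 6 libraries, 2 were H3K4me3 libraries, 1 for each siRNA, and they came from 1 cell line and 1 WDR5 siRNA. No group holds a replicate, so every value below describes these libraries and carries no replicate error or p-value.

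Neuroblastoma arises from sympathoadrenal cells of the neural crest. Its adrenergic state is held by a small set of transcription factors that bind the regulatory regions of their own genes and of each other's. PHOX2A is a paired-like homeodomain protein and ISL1 a LIM homeodomain protein. HAND1 and HAND2 are basic helix-loop-helix (bHLH) proteins, GATA2 and GATA3 are zinc finger proteins that bind the letters GATA, TBX2 is a T-box protein known as a repressor, and TFAP2B is the AP-2 beta factor. In development these factors act in sympathetic neurons and chromaffin cells, where PHOX2A, HAND2 and GATA3 are needed for the noradrenergic program.

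The promoter letters of 4 of the factors are printed here because their start sites are the ones whose calls are compared below. The 250 bases before the RefSeq start site on GRCh38.p14 are given 5′ to 3′ on the gene's strand. Capitals mark matches on either strand to CANNTG, the general E-box that bHLH proteins bind, to a GATA motif, to CCAAT, and to TAATTA, a homeodomain core. The HAND genes are shown as a pair of related genes, ISL1 as the factor gene farthest down its promoter table, and PHOX2A as a gene with a GC-rich promoter.
HAND2, chr4:173530230-173530479, minus strand: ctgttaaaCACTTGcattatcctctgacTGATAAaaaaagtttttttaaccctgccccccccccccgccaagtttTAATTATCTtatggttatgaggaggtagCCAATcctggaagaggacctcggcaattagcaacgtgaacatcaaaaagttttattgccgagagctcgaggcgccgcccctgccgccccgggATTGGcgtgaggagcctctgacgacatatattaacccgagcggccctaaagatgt
HAND1, chr5:154478228-154478477, minus strand: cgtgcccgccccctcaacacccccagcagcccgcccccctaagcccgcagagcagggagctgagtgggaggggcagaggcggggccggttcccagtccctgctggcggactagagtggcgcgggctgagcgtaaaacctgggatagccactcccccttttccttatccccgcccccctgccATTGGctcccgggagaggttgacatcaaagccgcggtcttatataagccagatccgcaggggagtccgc
ISL1, chr5:51383198-51383447, plus strand: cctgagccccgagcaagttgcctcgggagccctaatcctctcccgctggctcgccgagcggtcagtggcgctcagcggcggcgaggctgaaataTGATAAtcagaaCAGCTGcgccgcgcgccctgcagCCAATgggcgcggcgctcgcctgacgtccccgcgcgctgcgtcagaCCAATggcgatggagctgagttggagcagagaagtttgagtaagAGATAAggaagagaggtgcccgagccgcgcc
PHOX2A, chr11:72244177-72244426, minus strand: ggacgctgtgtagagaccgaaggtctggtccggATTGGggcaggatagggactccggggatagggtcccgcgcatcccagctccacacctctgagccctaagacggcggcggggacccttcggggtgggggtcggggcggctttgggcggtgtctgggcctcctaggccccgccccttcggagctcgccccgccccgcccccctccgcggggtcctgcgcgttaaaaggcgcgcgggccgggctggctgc

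The comparison asked whether the factor genes still carried an H3K4me3 peak near their start sites when WDR5 was targeted. The deposited peak lists name the genes that have, in a given library, an H3K4me3 peak within 1 kb of their transcription start site (TSS). All 8 factor genes were listed with control siRNA and all 8 were listed with WDR5 siRNA. None was listed in 1 library only. Each name filled 1 row in each list. Among all 13618 names listed with control siRNA, 86.5% were also listed with WDR5 siRNA and 13.5% were not. Being listed in both is thus the common outcome for a control name, so 8 of 8 is close to that background. A listing is a call without a height, so it does not show whether the H3K4me3 level at these promoters moved.

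The homeodomain genes were listed in both libraries. PHOX2A has its TSS at position 71955220 of chromosome 11 on hg19, the build of the files, and ISL1 has its TSS at position 50678958 of chromosome 5. The bHLH genes HAND1 (chromosome 5, position 153857824) and HAND2 (chromosome 4, position 174451378) were also listed in both. The same held for the zinc finger genes GATA2 (chromosome 3, position 128212030) and GATA3 (chromosome 10, position 8096667), and for TBX2 (chromosome 17, position 59477257). TFAP2B was listed in both libraries and had no row in either promoter table, so no TSS position on hg19 is given for it.

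The promoter tables divide promoters by whether N-Myc was called bound there, where N-Myc is the protein that MYCN encodes. Of the 7 factor genes with a row in these tables, 6 were in the non-binding table: PHOX2A, HAND1, HAND2, GATA2, GATA3 and ISL1. TBX2 was the 1 factor gene with an N-Myc-binding promoter. Of all 9585 promoters in the tables, 33.9% were N-Myc-binding. Most factor genes therefore carried their H3K4me3 call without being classed as bound by N-Myc, and with 7 genes the share of 1 in 7 is a description. Of the 6331 non-binding promoters, 47.7% were listed in both libraries, or 82.1% of the 3675 with a control peak, beside 6 of 6 for the factor genes. Of the 3254 N-Myc-binding promoters, 90.9% were listed in both, or 95.8% of the 3087 with a control peak, so the call of TBX2 is the common one in its class.

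The rows of the promoter tables follow an order that no header accounts for, and the factor genes stood near its top. HAND2 held row 7 of the 6331 rows of the non-binding table, or 0.111% of the way down. HAND1 held row 47 (0.742%). GATA2 held row 162 (2.56%). These were followed by PHOX2A at row 261 (4.12%) and GATA3 at row 284 (4.49%), which are close to each other in the order. ISL1 was the lowest of the 6, at row 688 (10.9%). The median of the 6 was 3.34%, and 5 of the 6 stood within the first 10% of rows, which by construction hold 10.0% of the table. Row position went with the call, and all 6 were listed in both. The 3019 non-binding promoters listed in both had a median row position of 23.9%, and 633 of them stood within the first 10% of rows. TBX2 held row 18 of the 3254 rows of the N-Myc-binding table (0.553%).

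Calls were uniform in the part of the order where the factor genes stood. In the non-binding table the 1528 rows ahead of row 1529, where MPP2 is the earliest gene not listed in both, were all listed in both libraries. Those rows make up 24.1% of the table and hold all 6 factor genes. The earliest such gene of the N-Myc-binding table was PARG at row 848, well behind TBX2. Each of the 7 factor genes with a row thus lay in a stretch of rows where every promoter was listed in both, so the call of a factor gene does not set it apart from the rows around it.

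**Figure D1:**
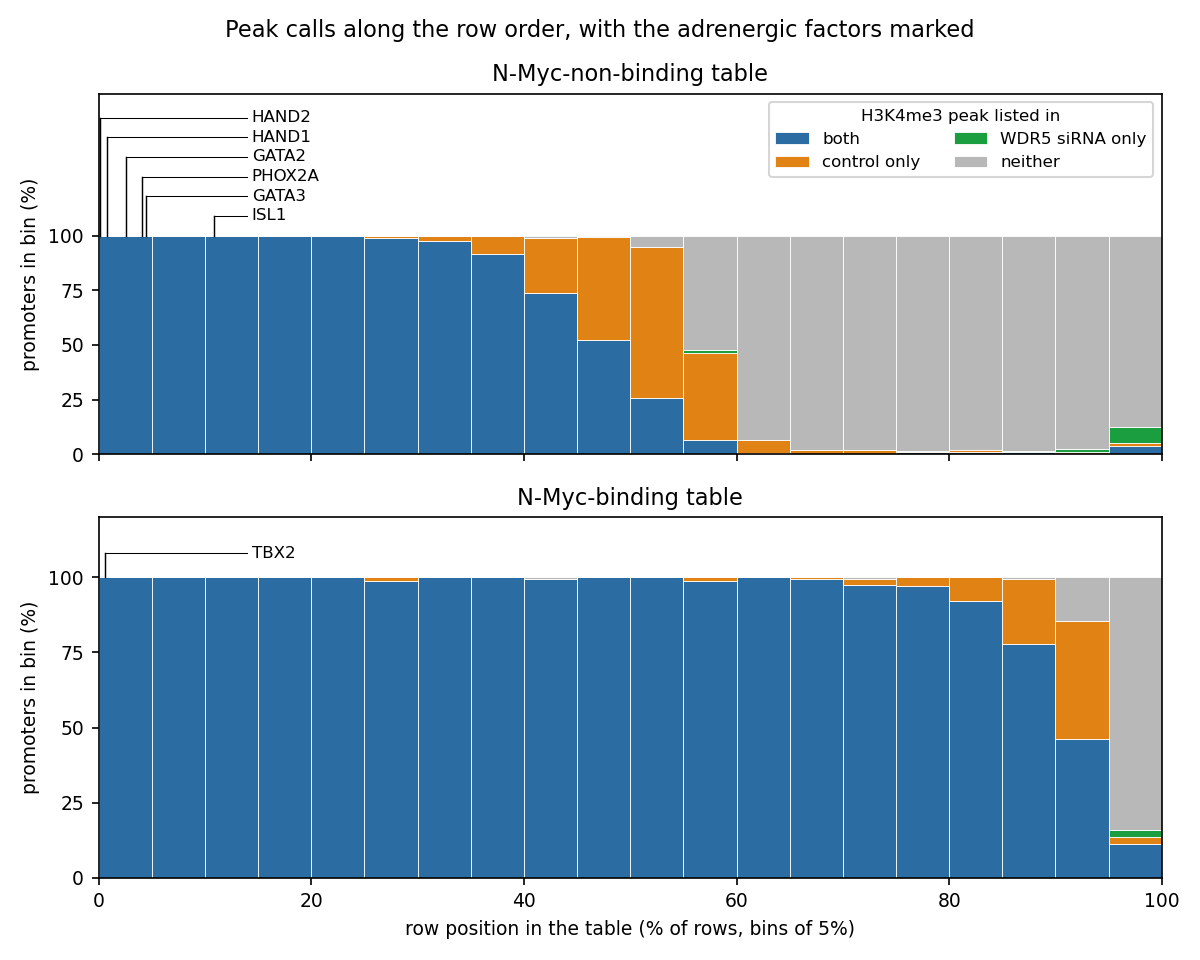
Peak calls along the row order of the promoter tables. Bars show the percent of promoters in each bin of 5% of rows that were listed in both H3K4me3 libraries, in the control library only, in the WDR5 siRNA library only or in neither, and lines mark the factor genes. The 6 factor genes of the non-binding table lie between 0.111% and 10.9%, in bins where every promoter was listed in both, and TBX2 lies at 0.553% of the N-Myc-binding table.

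The rows directly beside each factor gene lie in the same stretch. HAND2 stood between DAP3 and PPP1R9B, HAND1 between OSBPL3 and CDK5R2, and GATA2 between SGMS1 and WWC2. PHOX2A stood between CNOT7 and ZDHHC14, GATA3 between NRIP1 and ARHGAP12, ISL1 between COMMD3-BMI1 and ZNF250, and TBX2 between NUP188 and AZIN1. What the order means is not known, so a place beside a factor gene was not read as likeness to it.

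Calls were mixed in the families the factors belong to. Of 57 genes in 6 related families, 15 were listed in both libraries (26.3%), 14 were control-only, 1 was listed only with WDR5 siRNA and 27 were in neither. Of the 29 family genes with a control peak, 14 were thus missing from the WDR5 siRNA list, beside 13.5% of all control names. Many of these family genes are known for roles in other lineages. The factor genes are left out of the family counts, and a gene can belong to more than 1 list. No test was made of the difference between the factor genes and their families.

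Among the GATA genes, GATA4 (row 53) and GATA6 (row 1859) were listed in both, as GATA2 and GATA3 were. GATA5 was control-only at row 3316, and GATA1, the erythroid factor, was in neither list at row 4836. The T-box family had 6 of 16 other members in both, among them TBX3 and TBX20, and 4 control-only members, T, TBX22, TBR1 and EOMES. TBX4, the genomic neighbour of TBX2, was in neither. Of the AP-2 genes, TFAP2E was listed in both as TFAP2B was, TFAP2C was control-only, and TFAP2A and TFAP2D were in neither.

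The LIM homeodomain family had the most control-only members. Only LHX4 and LHX9 of the 11 genes beside ISL1 were listed in both. ISL2, the closest paralog of ISL1, was control-only, as were LHX1, LHX3, LHX6 and LMX1B. LHX2 was listed only with WDR5 siRNA, and LHX5, LHX8 and LMX1A were in neither. Of the 10 paired-like homeodomain genes beside PHOX2A, 2 were listed in both, DRGX among them, PRRX2 was control-only and 7 were in neither. Of 12 bHLH genes related to HAND1 and HAND2, TWIST1 and LYL1 were listed in both, TCF15 and TAL1 were control-only and 8 were in neither. Names that the authors' annotation writes differently, such as a later symbol, would also count as in neither.

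**Figure D2:**
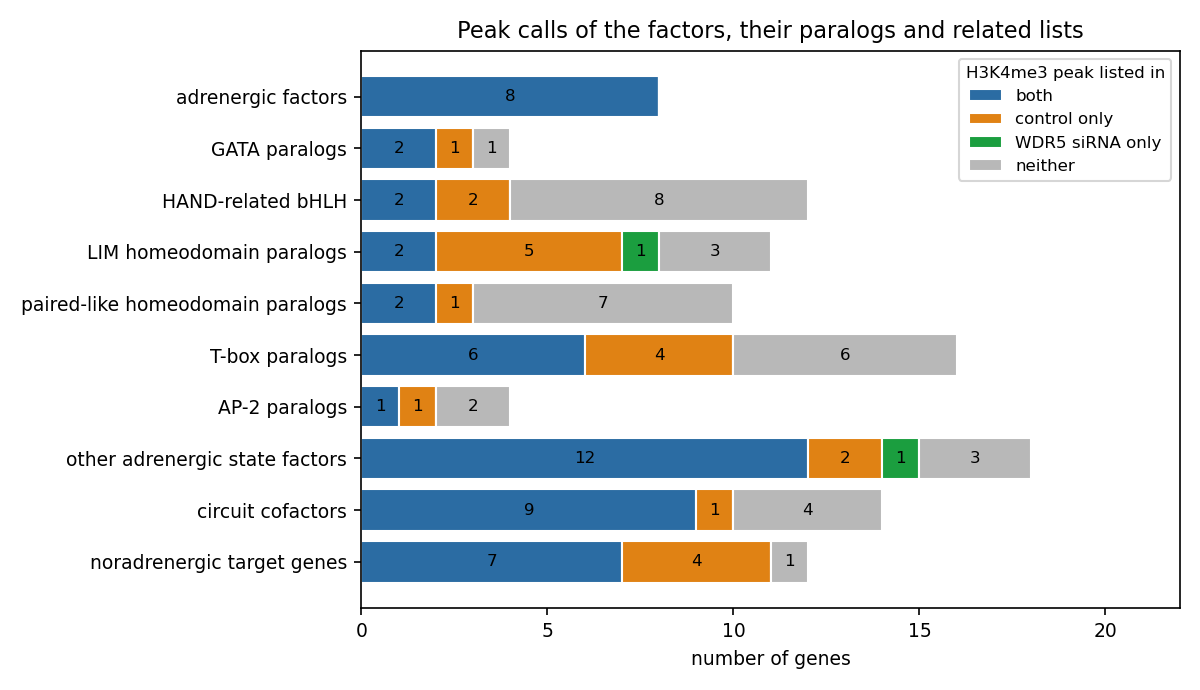
Peak calls of the 8 factor genes, of 6 related gene families and of 3 further lists. Bars count genes by whether an H3K4me3 peak was listed in both libraries, in the control library only, in the WDR5 siRNA library only or in neither. All 8 factor genes were listed in both, as were 15 of the 57 distinct family genes. Only 29 of these family genes had a control peak. The 15 are 51.7% of those, beside 86.5% of all control names.

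Of 18 other factors of the adrenergic state, 12 were listed in both libraries, 2 were control-only, 1 was listed only with WDR5 siRNA and 3 were in neither. The 12 are 85.7% of the 14 with a control peak, close to the 86.5% of all control names. Those in both included MYCN, INSM1 and INSM2, which are neuroendocrine zinc finger factors, and SIX3, a homeodomain factor. The control-only genes were LMO1 (row 2902), a LIM-only cofactor, and SOX11 (row 3534), an SRY-box factor. EYA1, listed in the WDR5 siRNA library alone, stood at row 6319, near the end of the non-binding table. KLF7, SATB1 and ZNF536 were in neither list. The 13 genes of this list with a non-binding promoter had a median row position of 45.8%, beside 3.34% for the factor genes. Row position went with the call, and the 13 mix all calls whereas the factor genes were all listed in both. The 2 medians therefore do not compare genes of like call. Those of the 13 listed in both ranged from 0.0632% (INSM2) to 48.5% (TCF3). Of the 13, 4 stood in the 1528 leading rows, among them INSM2 at row 4, SIX3 at row 216 and INSM1 at row 762.

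Proteins that bind the factors were also mostly listed in both. ZFPM2, a GATA cofactor also called FOG2, held row 11, directly among the top rows with HAND2. TCF12, an E-protein that pairs with bHLH factors such as HAND1 and HAND2, held row 42. These 2 are not typical of the list. Its 8 genes with a non-binding promoter ranged from 0.174% to 83.3% of the rows, with a median of 35.8%, and 3 stood in the leading rows. Of 14 cofactor genes, 9 were listed in both, LMO1 was control-only and LMO2, LMO3, LDB2 and TCF4 were in neither. The 9 are 90.0% of the 10 with a control peak, near the 86.5% of all control names. LDB1, which bridges LIM proteins, and CITED2, an AP-2 cofactor, were listed in both and had N-Myc-binding promoters. ZFPM1, LMO4, TCF3, KCTD1 and KCTD15 were the other cofactor genes listed in both.

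Genes of noradrenergic identity, several of them known targets of the circuit, did not all share the factors' call. Of 12 genes, 7 were listed in both and 4 were control-only, among them TH (row 3449), DDC (row 3401) and DBH (row 2729). The 4 are 36.4% of the 11 with a control peak, beside 13.5% of all control names, and no test was made of that difference. TH, DDC and DBH encode enzymes of catecholamine synthesis. The 4 with rows in the leading part of the non-binding table were RET (row 58), CHGA (row 251), ALK (row 643) and SLC6A2 (row 954), which lie in the range of rows that the factor genes span or just behind it. SLC18A1 was in neither list. The calls of the factor genes and of the enzyme genes DBH and TH therefore differed in these libraries, with no replicate to test the difference.

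**Figure D3:**
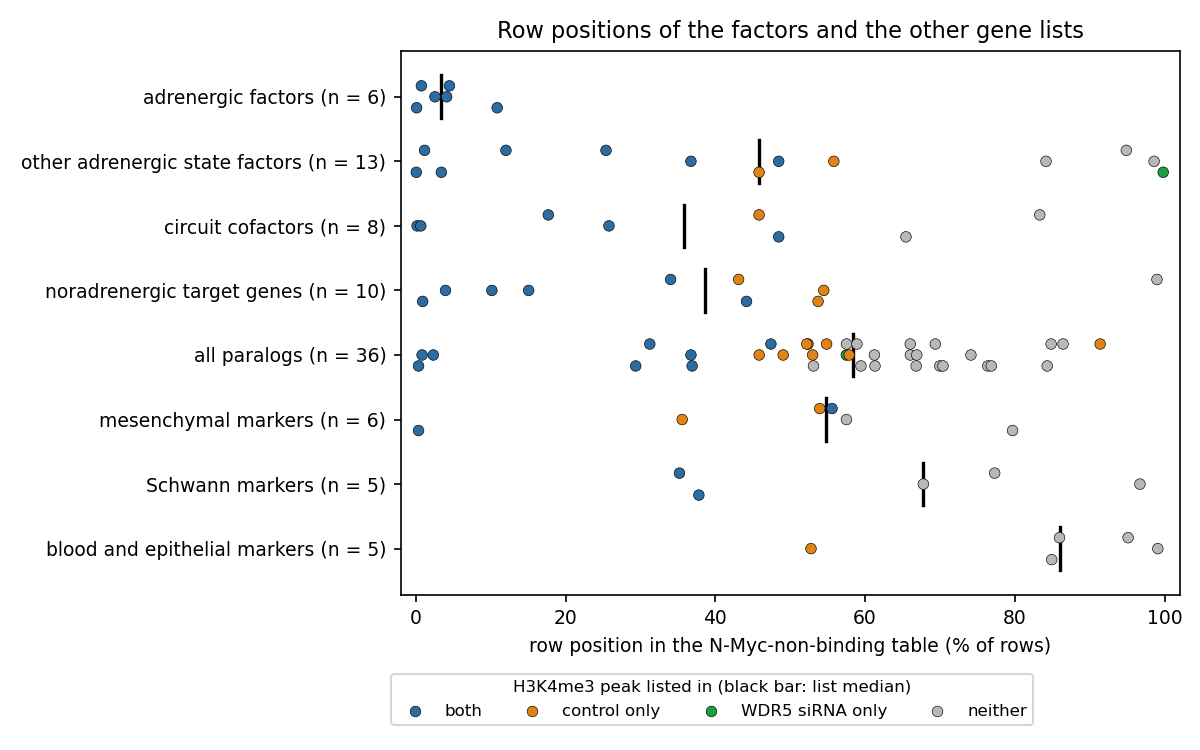
Row positions in the N-Myc-non-binding table for the factor genes and 7 gene lists. Each point is a gene, coloured by its peak call, and the black bar is the median of the list. The 6 factor genes lie at 0.111% to 10.9% with a median of 3.34%, while the other adrenergic factors have a median of 45.8% and the noradrenergic genes 38.6%. The factor genes were all listed in both, whereas the other lists mix calls, and all non-binding promoters listed in both have a median of 23.9%.

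Markers of other cell types were checked beside the factors. Among 12 blood, epithelial, liver and muscle markers, KRT18 had a peak in the control library and 11 had none in either. The Schwann cell list has 8 genes, of which the defining SOX10 and S100B were in neither, and ERBB3 and PMP22 were listed in both. Of 12 mesenchymal markers, 4 were listed in both (VIM, CD44, SNAI2 and TWIST1), 6 were control-only, and PRRX1 and COL1A2 were in neither. Of the 10 mesenchymal markers with a control peak, 6 were thus missing from the WDR5 siRNA list, beside 13.5% of all control names. For the noradrenergic genes it was 4 of the 11 with a control peak, so missing calls were not particular to that list. No test was made of these differences. TH and DBH, which define the noradrenergic lineage, had a peak with control siRNA, but so did 10 of the 12 mesenchymal markers. A control peak therefore does not set the noradrenergic genes apart from the mesenchymal ones. Whether WDR5 fell is not measured by these lists, since WDR5 is known here only by its label.

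The genomic surroundings were first read from the promoters with a row in the tables. Partners without a row, such as GATA3-AS1 and NBLA00301, are left out of these distances and are described below. The distances therefore cannot show whether a factor's call came from the peak of such a partner. No other promoter of the tables lay within 10 kb of any of the 7 factor TSSs with a row, and 88.8% of all 9585 promoters were likewise without another within 10 kb. The nearest was INPPL1, 19.3 kb from PHOX2A and listed in both libraries. Next came DNAJB8, 25.9 kb from GATA2 and in neither list, and SAP30L, 32.3 kb from HAND1 and listed in both. TBX4 lay 56.6 kb from TBX2, and SCRG1 lay 131 kb from HAND2, and both were in neither list. GATA3 and ISL1 had no other promoter of the tables within 250 kb, with ATP5C1 at 267 kb and PARP8 at 716 kb. Of all promoters 13.6% were as isolated.

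Within 250 kb of the 7 factor genes there were 10 other promoters, of which 7 were listed in both, none was control-only and 3 were in neither. The 3 were SCRG1, DNAJB8 and TBX4. HAND2, GATA2 and TBX2 were thus listed in both libraries beside a neighbour with no call in either. Within 1000 kb the count rose to 47 promoters, of which 37 were listed in both, 2 were control-only (P2RY2 near PHOX2A and HPGD near HAND2) and 8 were in neither. Of all non-binding promoters, 47.7% were listed in both, 10.4% were control-only and 41.4% were in neither. For all N-Myc-binding promoters these shares were 90.9%, 3.96% and 5.01%. A neighbour in neither list is thus common among non-binding promoters.

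**Figure D4:**
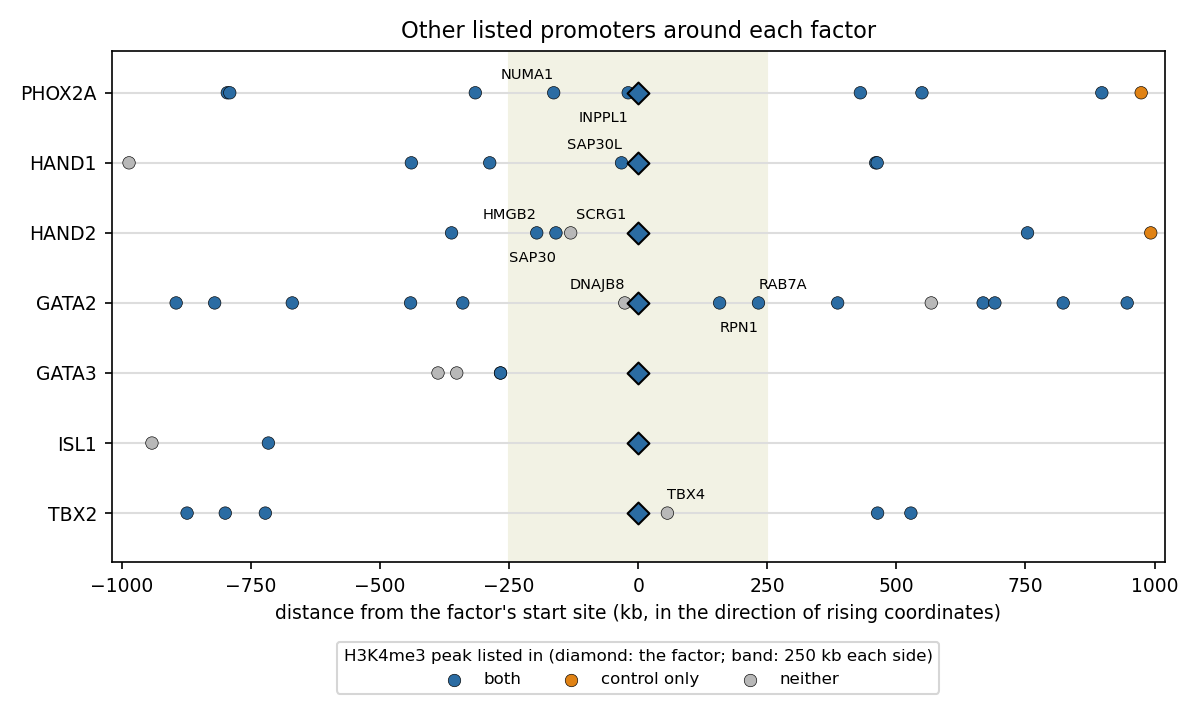
Other promoters of the tables within 1000 kb of each of the 7 factor TSSs. The horizontal axis gives the distance from the factor's TSS in kb, diamonds mark the factors, points mark other promoters coloured by peak call, and the shaded band is 250 kb on each side. The band around GATA3 and ISL1 holds no other promoter of the tables. The nearest promoters of the tables to TBX2, HAND2 and GATA2 were in neither list. Names without a row, such as GATA3-AS1, are not drawn.

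The peak lists also hold names without a row in the promoter tables, and the control list gives them in genome order. Of the 5 names before and the 5 after each factor, 80 in all, 72 were listed in both and 8 were control-only. These counts are near the shares over all control names, of which 86.5% were listed in both and 13.5% were control-only. The control-only ones were HPGD and GLRA3 after HAND2, DNAJB8-AS1 and KIAA1257 around GATA2, ECHDC3 and PROSER2 after GATA3, ITGA2 after ISL1 and C6orf141 before TFAP2B. DNAJB8-AS1 directly precedes GATA2, ECHDC3 directly follows GATA3 and C6orf141 directly precedes TFAP2B. These 3 factors were listed in both libraries, while a name directly next to each in the control list was missing from the WDR5 siRNA list. Being next in the list does not mean being close in the genome, and the distances to these 3 names were not worked out. Around PHOX2A, HAND1 and TBX2 all 10 names were listed in both.

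Divergent non-coding transcripts accompany some of the factors and were listed with them. NBLA00301, an older name for the antisense transcript HAND2-AS1, directly follows HAND2 in the control list and was listed in both. On GRCh38.p14 a HAND2-AS1 start lies 229 bases from the HAND2 start, pointing the other way. The windows before the HAND2 and HAND2-AS1 starts therefore cover mostly the same letters, which are printed above for HAND2. GATA3-AS1 directly precedes GATA3 and was listed in both. Its outermost start lies 157 bases from the nearest of the 6 annotated GATA3 starts, also divergently. ChIP reads carry no strand and the peak rule reaches 1 kb, so for HAND2 and GATA3 the peak of the factor and that of its antisense partner cannot be told apart. The same limit holds for GATA2 at 1 of its 2 annotated starts, which lies 673 bases from a divergent GATA2-AS1 start. GATA2-AS1 is not among the listed names. C17orf82, next after TBX2 in the control list, was listed in both too.

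The promoter letters were read from RefSeq windows of 300 bases, 250 before and 50 after the start. Of the 8 factor genes 7 had a window, TBX2 being the exception, and GATA2 had 2 and GATA3 had 6. Which of these starts the hg19 tables used was not worked out, because the builds differ. The canonical E-box CACGTG, the preferred site of N-Myc with MAX, was found in 1 of the 13 factor windows (7.69%), a GATA3 window. It occurred in 7.26% of all 35116 windows, in 13.9% of windows of N-Myc-binding genes and in 5.88% of those of non-binding genes. The general E-box CANNTG, which includes CACGTG, was found in 7 of the 13 factor windows (53.8%), which belong to 6 of the 7 genes. It occurred in 68.7% of all windows and in 59.3% of windows of genes listed in both. HAND2 held 1, CACTTG, that begins 242 bases before the start, ISL1 held 1, CAGCTG, at 144 bases, and HAND1 held none in its window.

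Letters that GATA factors bind were found in 2 of the 13 factor windows (15.4%), those of HAND2 and ISL1. Each held 2 matches to the GATA motif, searched on both strands as GATA with A or T before it and A or G after it, which 24.97% of all windows and 14.2% of windows of genes listed in both hold at least once. In HAND2 they begin 222 and 172 bases before the start, and the nearer one overlaps a TAATTA match that begins at 175 bases. TAATTA was found in 4.84% of all windows and in 2.02% of windows of genes listed in both, and in no other factor window. In ISL1 the GATA matches begin 156 and 31 bases before the start. CCAAT, the site of the NF-Y factor, was found in 8 of the 13 factor windows (61.5%), at least 1 for each of the 7 genes. GATA2 and GATA3 have several windows, and only some of these held it. It occurred in 34.6% of all windows and in 34.9% of windows of genes listed in both. HAND2, ISL1 and 1 GATA3 window held 2 matches each. CCAAT and TAATTA were searched after the sequences had been seen. A match is a description of letters and not of binding.

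H3K4me3 is commonly found at promoters rich in CpG, and the factor windows varied in this. The ratio of observed to expected CpG had a median of 0.836 in windows of genes listed in both libraries, 0.739 in those of control-only genes and 0.312 in those of genes in neither list. ISL1 had the highest ratio of the factor windows, at 1.08, above 96.6% of all windows. PHOX2A had 0.842, with a GC content of 73.7%. HAND2 had 0.797 although only 50.3% of its letters were G or C, and HAND1 had 0.644 with a GC content of 66.0%. The GATA2 windows had 0.744 and 0.590, and the 6 GATA3 windows ranged from 0.263 to 0.865. The TFAP2B window, whose start lies 516 bases inside the gene's annotated span, had 0.365 and a GC content of 43.0%. HAND2 and HAND1, both near the top of the table order, thus differed in base composition and in the motifs they held.

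**Figure D5:**
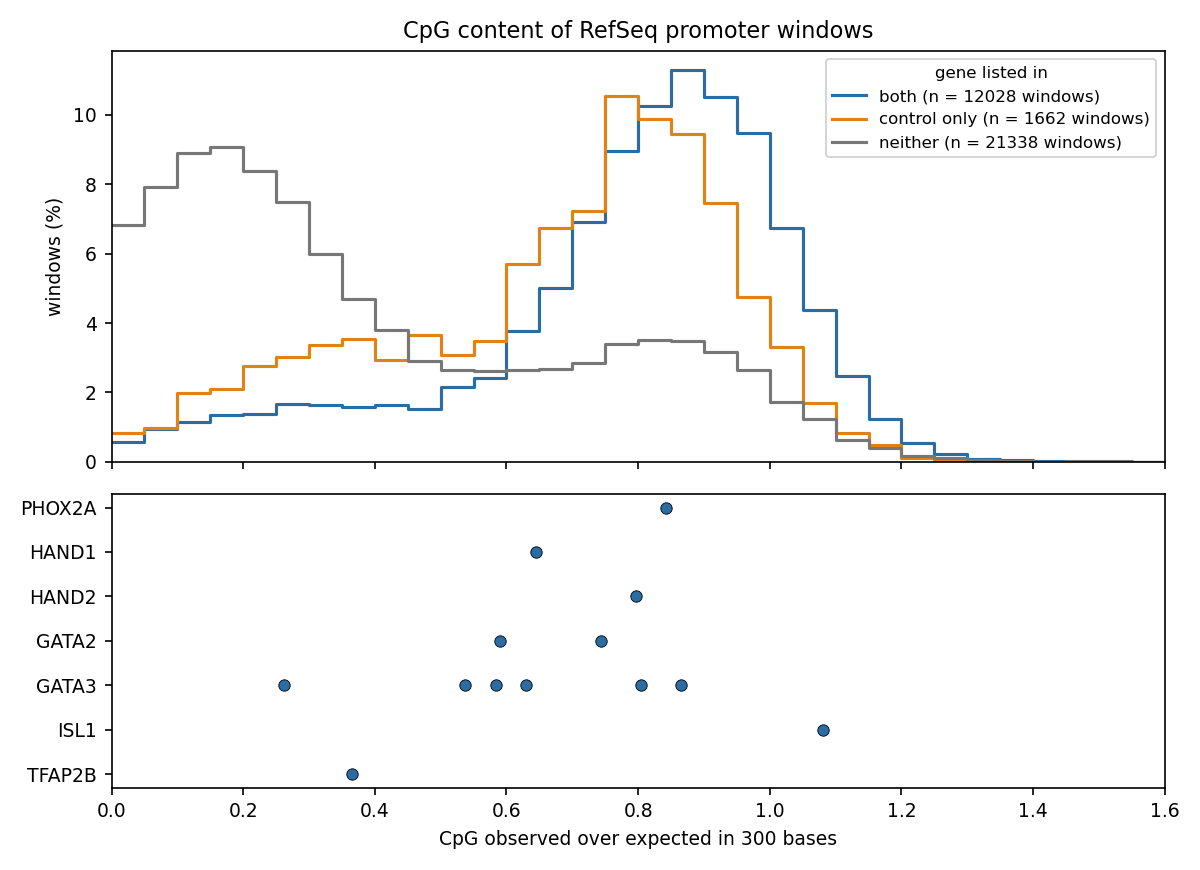
CpG content of RefSeq promoter windows of 300 bases. The upper panel shows the percent of windows at each ratio of observed to expected CpG for genes listed in both libraries, in control only and in neither, and the lower panel shows each window of 7 factor genes. ISL1 lies at 1.08, PHOX2A at 0.842, and the single TFAP2B window at 0.365.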

How the data were processed

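The 3 files the authors deposited that were used here hold gene names and TSS positions: a pair of name lists with an H3K4me3 peak within 1 kb of a TSS, and 1 table for each N-Myc promoter class, per the file headers. The promoter tables are titled as H3K4me3 quantification, but the tables used here have no column of values, so what their row order means is not known. Per the submitters' processing notes, BWA 0.7.12, bedtools and hg19 were used. Not given in the sources used here are the peak caller, its threshold, the depth, and how N-Myc binding was decided. IgG and input libraries were not analysed here.

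Names were matched exactly and reduced to distinct names per list. The second coordinate of each 1 bp interval was taken as the TSS. Peaks were joined to promoters by gene name, so a peak at another TSS of the gene counts. The members and gene lists were chosen with earlier results of these data known. Factor genes were always named, with list members listed in 1 library only, up to 6 other examples per list, neighbours within 10 kb and adjacent rows. Further names were added after the calls were seen. Motif search was tested on simulated sequences. Promoter windows came from RefSeq on GRCh38.p14. The planned protein comparison was not run. Some genes of the lists are counted but not reported by name. Tables were made with pandas 2.3.3 and numpy 2.4.6 in Python 3.11.15, and figures with matplotlib 3.10.9.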

Additional observations from a re-analysis of the deposited data

How the results depend on the processing

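No setting without a replicate could be run, since each siRNA has a single library. Matching by RefSeq synonyms or keeping rows as deposited could not lower the count of 8 factor genes listed in both, since all had matched by symbol. The synonym NCAM2 of PHOX2A is also the symbol of another gene and was not counted for PHOX2A. Counts over 25, 50 or 100 rows on either side of a factor gene fall wholly within the leading rows listed in both, so they could not vary. The control-only share of all control names was 11.6% for names with a promoter row and 12.9% without LOC, LINC, accession-style and numeric names, and single-row names gave 13.6%. Promoters near the factor genes numbered 4 within 100 kb and 47 within 1000 kb, because the distance sets the number. With only the 250 bases before the start, CANNTG was found for 4 factor genes and the counts for CACGTG and the GATA motif did not move. The depth behind the calls is not known, and a gene missing from a list may still carry the mark below the calling threshold.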
